A study of Mus musculus with 2 samples.

Results

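The 5 genes described here encode short structured RNAs that work without being translated: Rn7sk (7SK RNA), Rpph1 (the RNA of RNase P), Rmrp (the RNA of RNase MRP), Terc (the telomerase RNA) and Gm22422, a gene with a provisional name that the annotation classes as a small nucleolar RNA (snoRNA). They are 5 of the 43346 Ensembl gene rows of the deposited tables, and they were chosen by name with their levels in these libraries already known, so their levels are given as a description and were not tested. Total RNA came from megakaryocyte-erythroid progenitors (MEP), bone marrow cells named for the platelet-forming and red cell lineages, taken from male C57BL/6J mice of 5 to 6 weeks. The labels give no treatment, transgene or altered allele. There is 1 group of 2 libraries, replicate 1 and replicate 2, each built with the ScriptSeq kit from 100 ng of RNA after removal of ribosomal RNA. The stated size range was 200 to 1000 for replicate 1 and 215 to 1000 for replicate 2, with no unit. The labels name 1 donor entry for both libraries and do not say whether the cells came from separate mice, so the spread between the libraries may be technical.

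7SK RNA is made by RNA polymerase III and holds the elongation kinase P-TEFb (CDK9 with a cyclin T) inactive together with a HEXIM protein; LARP7 binds the end of the RNA and MEPCE caps its start. RNase P removes the leader from precursor transfer RNAs and RNase MRP cuts precursor ribosomal RNA. These enzymes have related RNAs and share most of their proteins. Telomerase RNA carries the template copied by the reverse transcriptase TERT into telomere repeats and ends in an H/ACA domain, the fold of the snoRNAs that guide pseudouridine formation, bound by dyskerin (Dkc1), Nop10, Nhp2 and Gar1. Telomerase, 7SK and ribosome synthesis all matter in blood progenitors, which divide often.

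All 5 genes are annotated as single RNAs on the minus strand of mm10. The RNA sequences below are the GENCODE M21 transcripts, written as DNA, and are shown because length and shared runs bear on how the RNAs were counted. The motifs marked in them are given as description. The first set shows the H/ACA ends of Gm22422 (135 bases, chr16:56035753-56035887) and Terc (423 bases, chr3:96414437-96414859), with the ACA that lies 3 bases before the end in capitals, and the start of Terc with its template letters CTAACCC in capitals.
Gm22422, whole: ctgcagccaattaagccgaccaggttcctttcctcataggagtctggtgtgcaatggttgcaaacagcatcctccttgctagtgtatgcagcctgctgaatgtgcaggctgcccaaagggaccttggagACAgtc
Terc, bases 384 to 423: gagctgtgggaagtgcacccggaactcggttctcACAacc
Terc, bases 1 to 60: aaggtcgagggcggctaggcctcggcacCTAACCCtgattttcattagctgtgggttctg
Of 1507 annotated snoRNA transcripts, 276 (18.3%) have ACA at that distance from the end, a count that includes box C/D snoRNAs and pseudogene copies. The template letters occurred in the first 60 bases of 0.163% of annotated transcripts of at least that length. The Terc model used here starts 26 bases before the RefSeq start, so the template letters begin at base 29 of the model and base 3 of the RefSeq RNA.

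The start of Rn7sk (331 bases, chr9:78175303-78175633) is shown because this stretch holds the HEXIM-binding hairpin, known for GATC repeats, and the end because it carries the T run at which RNA polymerase III stops. GATC and the closing T run are in capitals.
Rn7sk, bases 1 to 100: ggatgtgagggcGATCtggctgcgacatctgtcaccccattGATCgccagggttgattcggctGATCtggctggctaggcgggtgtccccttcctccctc
Rn7sk, bases 302 to 331: ggcgctgcatgtggcagtctgcctttcTTT
GATC began at bases 13, 42 and 64. As many copies within the first 100 bases were found in 0.323% of 139316 annotated transcripts of at least that length.

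Rmrp (271 bases, chr4:43492788-43493058) and Rpph1 (319 bases, chr14:50807449-50807767, of which bases 1 to 300 are printed) are shown side by side because reads shared by related RNAs could be divided between them. Capitals mark their longest identical runs, which were 2 runs of 9 bases.
Rmrp, whole: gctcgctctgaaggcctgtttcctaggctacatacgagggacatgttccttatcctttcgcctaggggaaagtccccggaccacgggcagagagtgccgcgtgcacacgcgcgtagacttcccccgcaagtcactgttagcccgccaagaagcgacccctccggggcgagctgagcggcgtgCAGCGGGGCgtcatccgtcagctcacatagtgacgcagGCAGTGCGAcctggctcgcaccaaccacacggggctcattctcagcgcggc
Rpph1, bases 1 to 300: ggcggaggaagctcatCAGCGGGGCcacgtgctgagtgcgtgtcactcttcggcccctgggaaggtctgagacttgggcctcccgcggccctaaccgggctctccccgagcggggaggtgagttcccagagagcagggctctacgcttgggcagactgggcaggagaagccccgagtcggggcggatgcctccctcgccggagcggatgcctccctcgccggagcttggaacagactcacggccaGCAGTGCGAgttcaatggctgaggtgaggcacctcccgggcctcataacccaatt
The runs began at bases 183 and 221 of Rmrp and at bases 17 and 246 of Rpph1. No annotated transcript resembled Rmrp on the same strand at the search threshold, and Rpph1 was not among the sequences similar to it. GC content was 67.1% for Rpph1, 67.1% for Terc, 64.2% for Rmrp, 58.0% for Rn7sk and 53.3% for Gm22422. Each lay above 49.8%, the median of 27984 annotated transcripts of 100 to 500 bases.

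7SK RNA held the most counts of any gene in both libraries. Rn7sk (ENSMUSG00000065037.1) had 1136409 expected counts in replicate 1 and 1546813 in replicate 2, where an expected count is the estimated number of reads or fragments assigned to a gene. This was 2.85% and 3.22% of all counts. Its TPM, which divides counts by an effective length and scales them to a fixed sum over all genes, was 106315 and 99672, or 102994 ± 4697 (SD, n = 2). Replicate 2 was the higher library in counts and the lower one in TPM.

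RNase P RNA was the next of the 5 in counts. Rpph1 (ENSMUSG00000092837.1) had 199643 counts in replicate 1 and 419392 in replicate 2, ranks 8 and 5 of all genes. Its TPM was 20501 and 29683, or 25092 ± 6493 (SD, n = 2). Rmrp (ENSMUSG00000088088.1) had 40020 and 74098 counts, and a TPM of 6466 and 8292, or 7379 ± 1291 (SD, n = 2). Both RNAs were higher in replicate 2 on the count and the TPM scale. Within a library, Rpph1 exceeded Rmrp by 1.75 ± 0.12 (SD, n = 2) on the log2 TPM scale, a ratio of 3.17 in replicate 1 and 3.58 in replicate 2, so the 2 libraries differed little in this ratio.

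Telomerase RNA was the lowest of the 5 by a wide margin. Terc (ENSMUSG00000064796.1) had 113 counts in replicate 1 and 534 in replicate 2, and a TPM of 6.11 and 19.8, or 13.0 ± 9.71 (SD, n = 2). Its rank by TPM among all genes was 5767 in replicate 1 and 1996 in replicate 2. Rmrp, the next RNA above it, had a TPM 1058 and 418 times as high.

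Gm22422 (ENSMUSG00000064994.1) had the highest TPM of all genes in both libraries with far fewer counts than Rn7sk. It had 64596 counts in replicate 1 and 57318 in replicate 2, and a TPM of 211287 and 149284, or 180286 ± 43843 (SD, n = 2). Replicate 1 was the higher library on both scales, opposite to Rpph1, Rmrp and Terc. Together the 5 RNAs took 3.61% and 4.37% of counts but 34.5% and 28.7% of TPM. Recomputed without them, the TPM of every other gene would be 1.53 times as high in replicate 1 and 1.40 times in replicate 2. The 4 RNAs other than Gm22422 took 3.45% and 4.25% of counts and 13.3% and 13.8% of TPM. Recomputed without these 4 alone, the factors would be 1.15 and 1.16.

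**Figure D1:**
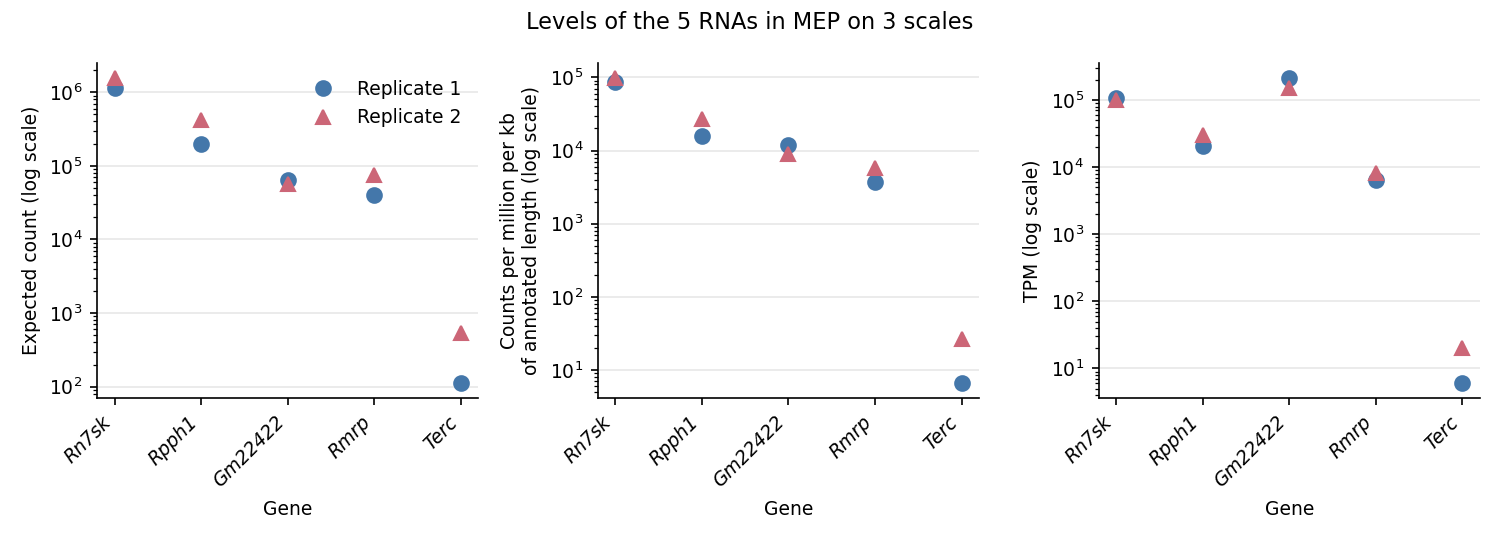
Expected count, CPM (counts scaled to the library total) per kilobase of annotated length, and TPM of the 5 RNAs, each on a log axis, with 1 point per library (circles, replicate 1; triangles, replicate 2). Rn7sk was highest in counts and per kilobase of annotated length, while Gm22422 was highest in TPM, and Terc was lowest in each panel.

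The order of the RNAs depended on the length used. In TPM it ran Gm22422, Rn7sk, Rpph1, Rmrp, Terc in both libraries, and no neighbours in that order overlapped between libraries. Gm22422 exceeded Rn7sk by 0.79 ± 0.29 (SD, n = 2) on the log2 TPM scale, a ratio of 1.99 in replicate 1 and 1.498 in replicate 2. With CPM divided by the annotated length in kilobases the order ran Rn7sk (91637 ± 7967), Rpph1 (21521 ± 8265), Gm22422 (10412 ± 2227), Rmrp (4695 ± 1409) and Terc (16.5 ± 13.8; SD, n = 2 for each), again with no overlap of neighbours. On that scale the log2 ratio of Gm22422 over Rn7sk was -3.15 ± 0.44, so the direction of the pair reversed. Gm22422 then ranked 5 and 7 among all genes.

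The deposited effective length, the number of start positions the quantification allows a fragment, fell steeply for short RNAs. It was 3.35 and 2.86 bases for Gm22422, 2.48% and 2.12% of its annotated length in replicates 1 and 2. It was 67.8 and 66.5 bases for Rmrp, 107 and 105 for Rpph1, 117 and 115 for Rn7sk and 202 and 200 for Terc, or 47.9% and 47.3% of the length of Terc. One count was therefore worth 3.27 TPM for Gm22422 in replicate 1, against 0.0936 for Rn7sk and 0.0541 for Terc. The effective length of Gm22422 differed between the libraries by -0.23 on the log2 scale, while those of the other 4 RNAs differed by -0.03 to -0.02.

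**Figure D2:**
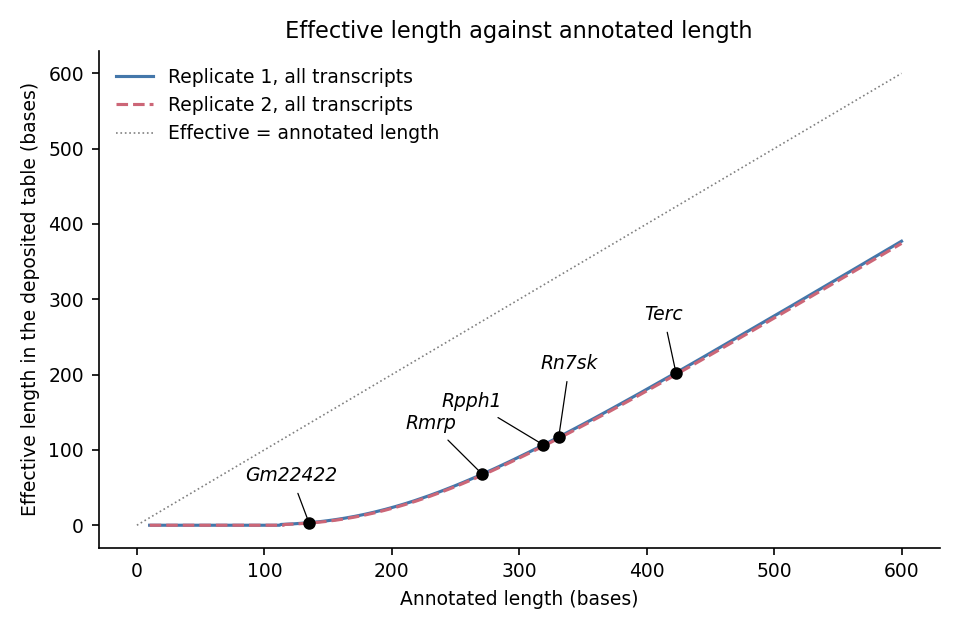
Effective length in the deposited tables against annotated length, both in bases, for all transcripts up to 600 bases (solid line, replicate 1; dashed line, replicate 2; dotted line, equal lengths). Points mark the 5 RNAs in replicate 1, from 3.35 bases for Gm22422 to 202 for Terc, all below the dotted line.

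The shortest RNAs, all shorter than Gm22422, had no TPM whatever their counts. The effective length was 0 for transcripts up to 112 bases in replicate 1 and 115 in replicate 2. In all, 19 gene rows in replicate 1 and 29 in replicate 2 had counts but an effective length of 0 and are listed at a TPM of 0, with 1080 and 1037 counts between them. The Y RNA gene Rny3, which makes a small RNA bound by the Ro protein, was one of these, with 39 and 72 counts. At the other side of that limit, gene rows with counts and an effective length above 0 and under 10 bases numbered 99 and 126. They held 0.437% and 0.508% of counts and 39.8% and 36.2% of TPM, most of it from Gm22422 in replicate 1.

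Between the replicates Terc differed most, and 3 of the 4 other RNAs were also higher in replicate 2. On CPM scaled by TMM, a scaling that centres most genes near equal levels, Terc was at 2.78 in replicate 1 and 11.3 in replicate 2. Its log2 ratio of replicate 2 over replicate 1 was 2.03, with an exact binomial 95% interval of 1.73 to 2.34 that covers counting error only. The log2 ratio was 0.86 for Rpph1 (0.85 to 0.87), 0.68 for Rmrp (0.66 to 0.70), 0.23 for Rn7sk (0.23 to 0.24) and -0.38 for Gm22422 (-0.40 to -0.37). With 1 library on each side these ratios carry no test of replicates. The counting intervals do not measure the spread between preparations.

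Terc was the 1 of 5 RNAs past 2-fold. Of 14071 genes with at least 20 counts in all, 3826 (27.2%) were past 2-fold in either direction and 1754 (12.5%) were past it with replicate 2 higher, so 1 of 5 is near the background. Genes at 0 in 1 library numbered 1337 of the 14071 and count among those past 2-fold. Of 10096 genes with at least 100 counts in each library, a limit set after the data were seen and one that Terc passes, 813 (8.05%) were past 2-fold, of which 348 were higher in replicate 2. Among the 14071, the share of genes with a larger ratio in either direction counts every gene at 0 in 1 library as larger. This share was 15.9% for Terc, 30.7% for Rpph1, 37.4% for Rmrp, 55.4% for Gm22422 and 69.9% for Rn7sk.

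The sign of the Rn7sk ratio depended on the scale. In TPM the median gene differed by -0.34 on the log2 scale and Rn7sk by -0.09, so Rn7sk lay 0.25 above the median gene. Relative to that median, Terc lay 2.04 above, Rpph1 0.87 above and Rmrp 0.70 above. Gm22422 was at -0.50 in TPM, or -0.16 relative to the median. Plain CPM and DESeq2 size factors kept the sign of all 5 ratios.

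**Figure D3:**
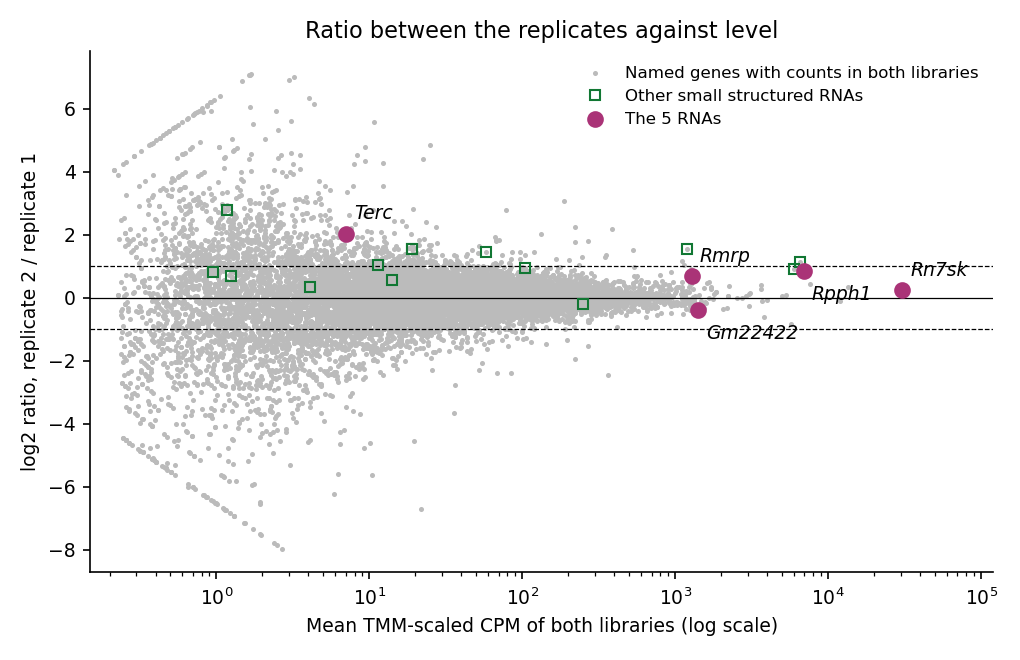
Log2 ratio of replicate 2 over replicate 1 against the mean TMM-scaled CPM (log axis), for genes with a symbol, at least 20 counts in all and counts in both libraries (grey), with the 5 RNAs (filled circles) and other small structured RNAs (open squares). Dashed lines mark 2-fold; Terc lies above the upper one at 2.03, and the other 4 RNAs lie between the lines.

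Other small structured RNAs tended to be higher in replicate 2 as well. Of 23 such genes, 22 were found, 14 had at least 20 counts, and 7 of the 14 were past 2-fold, all with replicate 2 higher, against 12.5% of all genes in that direction. Rnu1b1 and Rnu1b2, 2 of the 7, have identical values. Their median log2 ratio was 0.995, against 0.0026 for all 14071 genes. Rnu2-10, a gene of the spliceosomal U2 RNA, had 24533 and 83552 counts, a log2 ratio of 1.56. Rnu3a, the U3 snoRNA of ribosomal RNA processing, had 1260 and 3970 counts (1.44), and the minor spliceosome RNA gene Rnu11 had 304 and 724 (1.04). The signal recognition particle RNA gene Rn7s2 had 168311 and 424161 counts (1.12), and its copy Rn7s1 168298 and 366741 (0.91). Rnu1a1, a U1 gene, went the other way with 10817 and 10911 counts (-0.20). The U1 genes Rnu1b1 and Rnu1b2 each had 396 and 1327 counts (1.53), and such copies, like the Rn7s genes, share reads that cannot be assigned with certainty.

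Of all 14071 genes, 12.5% were past 2-fold with replicate 2 higher and 14.7% with it lower. By annotated class, the 39 spliceosomal RNA (snRNA) genes with at least 20 counts had a median log2 ratio of 1.21, with 24 (61.5%) past 2-fold higher in replicate 2 and 1 (2.56%) lower. The 100 snoRNA genes, the class of Gm22422, had a median of 0.02, with 34 (34.0%) higher and 18 (18.0%) lower. The 18 genes of the miscellaneous class that holds Rn7sk and Terc had a median of 0.51, with 4 (22.2%) in each direction. Protein-coding genes had a median of 0.02 over 11914 genes. The size range stated for the libraries also differed, and its part in these ratios was not tested.

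Rpph1, Rmrp and Gm22422 overlap other annotated genes, all with fewer counts than the small RNA. Rpph1 lies 73 bases from Parp2, a poly(ADP-ribose) polymerase gene on the opposite strand, which had 3628 and 3692 counts and a log2 ratio of -0.19, against 0.86 for Rpph1. Rpph1 also overlaps Ccnb1ip1 on its own strand, a meiosis gene whose row had 0 counts in both libraries. The 1 Ccnb1ip1 transcript that shares exon sequence with Rpph1, Ccnb1ip1-202, with 233 bases, had no value in the quantification. Its level is therefore unknown here. Rmrp overlaps the opposite-strand gene Ccdc107, which had 643 and 719 counts and a log2 ratio of -0.05. The 1 Ccdc107 transcript that shares exon sequence with Rmrp, Ccdc107-206, with 124 bases, had 6 and 0 counts. No source used here says whether counting used strand, and without it reads of an overlapping pair cannot be told apart.

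Gm22422 lies in an intron of Trmt10c, on the same strand. Trmt10c encodes a protein of the mitochondrial RNase P, which unlike the enzyme built on Rpph1 contains no RNA. It had 5296 and 4729 counts and a log2 ratio of -0.37 on TMM-scaled counts, against -0.38 for Gm22422. On that scale host gene and snoRNA gene differed between the libraries by nearly the same amount. Pcnp and Senp7, the nearest genes on either side, were at -0.28 and -0.41. In TPM, Trmt10c was at 20.9 and 12.7, a larger drop than that of Gm22422, at -0.50 on the log2 scale. Gm22422 shares 0 bases with exons of Trmt10c. As both lie on the same strand, strand would not separate reads of Gm22422 from reads of Trmt10c RNA that keeps the intron. Rn7sk has Ick, a kinase gene, 3195 bases to the left, with 1092 and 1178 counts, and the non-coding gene C920006O11Rik 280 bases to the right, with 3 and 0. The genes on either side of Terc, Gm21960 and Gm24136, had 0 counts.

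The upstream sequences of Rpph1, Rmrp and Rn7sk, the 3 polymerase III RNAs for which a window was found, are shown because their neighbours Parp2, Ccdc107 and C920006O11Rik start from the same stretches in the other direction. They come from the RefSeq promoter windows of those neighbours (GRCm38.p6), turned to the strand of the small RNA, and capitals mark the octamer ATTTGCAT and TATAA on either strand.
Rpph1, chr14:50807768-50807965, minus strand, bases 198 to 1 upstream: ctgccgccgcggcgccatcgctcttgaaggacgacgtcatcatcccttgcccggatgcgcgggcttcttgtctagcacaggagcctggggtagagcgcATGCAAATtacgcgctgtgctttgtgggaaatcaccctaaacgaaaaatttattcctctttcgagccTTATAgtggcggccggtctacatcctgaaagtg
Rmrp, chr4:43493115-43493414, minus strand, bases 356 to 57 upstream: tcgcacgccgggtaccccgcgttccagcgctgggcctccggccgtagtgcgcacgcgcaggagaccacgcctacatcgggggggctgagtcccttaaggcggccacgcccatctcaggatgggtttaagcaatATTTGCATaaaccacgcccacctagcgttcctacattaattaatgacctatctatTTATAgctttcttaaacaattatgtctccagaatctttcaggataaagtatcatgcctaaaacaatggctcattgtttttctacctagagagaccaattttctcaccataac
Rn7sk, chr9:78175664-78175963, minus strand, bases 330 to 31 upstream: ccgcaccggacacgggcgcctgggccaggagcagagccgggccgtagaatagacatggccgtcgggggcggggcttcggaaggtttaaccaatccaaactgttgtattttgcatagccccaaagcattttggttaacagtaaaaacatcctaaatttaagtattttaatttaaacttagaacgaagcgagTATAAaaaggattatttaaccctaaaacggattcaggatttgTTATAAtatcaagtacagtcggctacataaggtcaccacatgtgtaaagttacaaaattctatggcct
The octamer lay 93 to 100 bases upstream of Rpph1 on the opposite strand and 216 to 223 bases upstream of Rmrp on the same strand, and its letters were not in the Rn7sk window. It occurred in 1.75% of 32544 promoter windows of 300 bases. TATAA, which occurred in 24.8% of the windows, lay on the opposite strand 29 to 33 bases upstream of Rpph1 and 164 to 168 upstream of Rmrp. In the Rn7sk window it lay on the same strand at 136 to 140 and 93 to 97 bases upstream, the latter overlapping a match on the opposite strand at 94 to 98. The Rmrp and Rn7sk windows begin 57 and 31 bases upstream, so bases nearer to these 2 RNAs were not searched. These matches are letters in a window and do not show binding.

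Annotated copies of the RNAs took few counts. By sequence search, 237 other genes resembled Rn7sk on the same strand. Of these, 232 were of the same miscellaneous RNA class and had 302 and 373 counts in all. The 11 genes with at least 90% identity over at least 50% of the RNA had 223 and 338. A further 3 were the protein-coding genes Clk4, Tmem254a and Alkbh6, with 6300 and 7265 counts, and Clk4, which held most of these, matched over only 47 bases. Of 21 genes that resembled Rpph1, the 18 of its own class, among them the annotated copies Rprl1, Rprl2 and Rprl3, had 1 and 0 counts in all. The long non-coding gene Gm26809, matched over 44 bases, had 197 and 294. Terc had 2 similar rows, both at 0. Gm22422 resembled 24 genes at lower identity, 82.0% for Snora70, an H/ACA snoRNA with 21.6 and 74.7 counts. The ribosomal protein gene Rpl10, an annotated transcript of which matched with the same identity, had 19887 and 33588 counts, and the 23 snoRNA genes had 578 and 604 together. Most of these snoRNA counts were those of Gm26165, at 79.9% identity, with 556 and 490. No gene resembled Gm22422 with at least 90% identity.

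The genes nearest to each RNA in level over these 2 libraries were mostly protein-coding, with a small RNA, Rn7s2, near Rpph1. They were named by the smallest distance in log2 of the TMM-scaled CPM plus 0.5, a likeness over only 2 points. For Rn7sk they were mt-Co1 and Eef1a1, each at a distance above 1.6, so no gene was close to it. For Rpph1 they were Gm26917 and Rn7s2, for Rmrp mt-Cytb and Rplp0, for Terc Rundc1 and Jmjd7, and for Gm22422 Rpl21 and Set.

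Nearly all protein partners of the RNAs were detected. Of 65 partner genes in 6 lists, 62 reached a TPM of 1 in both libraries, against 9160 of the 43346 gene rows (21.1%) and 8465 of 21474 protein-coding genes. Of the 64 partners with at least 20 counts, 4 were past 2-fold, all higher in replicate 2, against the background of 12.5% for that direction.

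The 7SK particle was represented by its binding protein gene Larp7 at a TPM of 49.1 and 32.8, the capping enzyme gene Mepce at 5.92 and 4.70, and the inhibitor gene Hexim1 at 6.10 and 6.90. The second inhibitor gene, Hexim2, was low, with 67 and 275 counts and a TPM of 0.44 and 1.66. It was the 1 of 7 genes past 2-fold, at a log2 ratio of 1.83. Of the P-TEFb genes, Cdk9 was at 7.95 and 10.03, Ccnt1 at 23.4 and 17.3 and Ccnt2 at 18.4 and 7.97. The log2 ratio on TMM-scaled counts was -0.70 for Ccnt2, -0.24 for Larp7 and 0.53 for Hexim1, against 0.23 for Rn7sk. All 7 genes of factors that recruit P-TEFb were detected and none was past 2-fold; among them Mllt3 was highest at 22.2 and 26.8.

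The protein genes of RNase P and RNase MRP lay within 2-fold between the libraries. Of 11 genes, 10 were detected and none of the 10 was past 2-fold, with a median log2 ratio of -0.11, against 0.86 for Rpph1 and 0.68 for Rmrp. Pop5 was at a TPM of 18.5 and 33.1, with the highest log2 ratio of the list, 0.67. Rpp30 was at 18.5 and 17.1, Pop4 at 15.8 and 13.9, Rpp21 at 15.2 and 14.9 and Pop1, the largest protein of both enzymes, at 6.25 and 5.73. Rpp40, at 5.81 and 4.25, had the lowest log2 ratio, -0.67. Rpp25 had 0 counts in both libraries, while its paralog Rpp25l was at 10.4 and 7.21.

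The reverse transcriptase of telomerase was near the limit of detection, and like Terc it was higher in replicate 2. Tert had 20 counts in replicate 1 and 105 in replicate 2, a TPM of 0.07 and 0.24, and its log2 ratio of 2.18 stood beside 2.03 for Terc. The counts behind Tert are few. The H/ACA proteins, which also serve snoRNAs, were far higher and differed little: Dkc1 was at 130 and 113 TPM (log2 ratio -0.27), Nop10 at 63.5 and 58.6 (0.23), Nhp2 at 47.1 and 30.4 (-0.29) and Gar1 at 15.2 and 11.04 (-0.43). The deadenylase gene Parn, which trims the end of the RNA, was at 16.5 and 13.2 and the assembly factor gene Naf1 at 3.71 and 2.94. Of the 7 shelterin genes, whose proteins cap telomeres, all were detected and 1 was past 2-fold. This was Acd, which encodes the telomerase-recruiting protein TPP1, with 296 and 842 counts and a log2 ratio of 1.30; Terf2 followed at 0.81.

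The transcription machinery that makes 7SK, RNase P and RNase MRP RNA was detected throughout. All 24 genes of RNA polymerase III, its factors and the La protein reached a TPM of 1 in both libraries, with a median of 9.56 for the means. The factor gene Brf2 was the lowest of the 24, at 1.83 and 1.24, close to that limit. The La gene Ssb, whose protein binds the closing T run of new polymerase III transcripts, was highest at 248 and 166. The SNAPc genes, for the factor that starts transcription at such promoters, ran from Snapc2 at 2.40 and 2.48 to Snapc5 at 21.9 and 21.97. The repressor gene Maf1 was at 19.8 and 12.9. The median log2 ratio of the list was -0.06, and Polr1c, a subunit shared with RNA polymerase I, was the 1 gene past 2-fold, at 1.01.

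**Figure D4:**
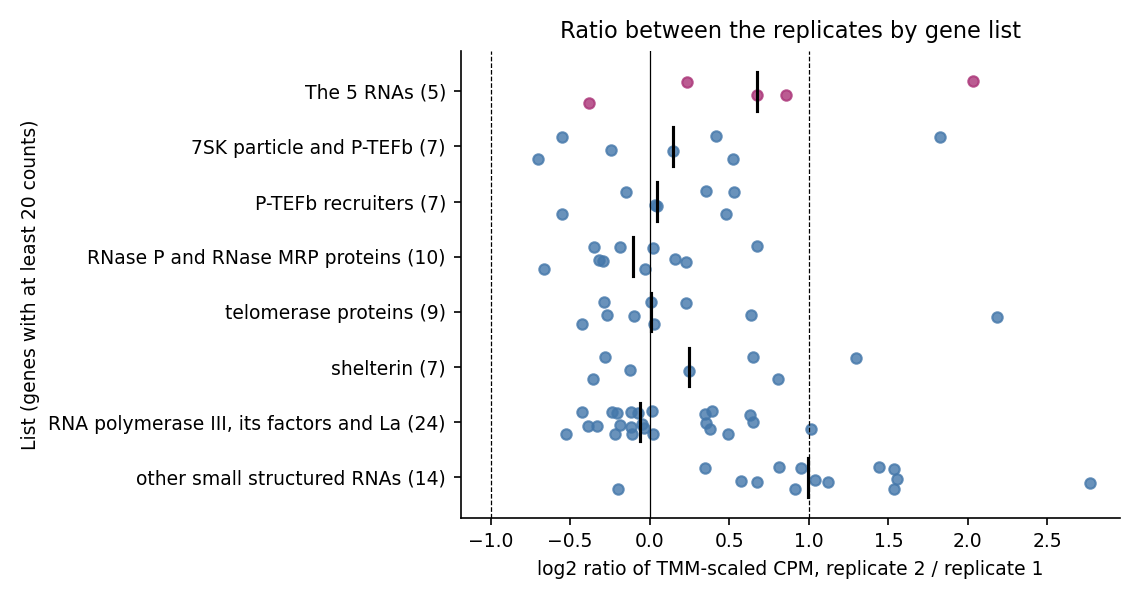
Log2 ratio of TMM-scaled CPM, replicate 2 over replicate 1, for the 5 RNAs and each list of partners, with 1 point per gene with at least 20 counts and a vertical bar at the list's median (points are offset vertically for display only). Dashed lines mark 2-fold. The list of other small structured RNAs has its median at 0.995, and the protein lists have medians from -0.11 to 0.25.

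The libraries held 39919858 and 48043009 expected counts over the gene rows. The labelled cell type was checked on 8 markers: all 8, among them Kit, Gata1, Klf1, Epor and Myb, reached a TPM of 1 in both libraries. Itga2b, the integrin gene of the megakaryocyte lineage, was the 1 of the 8 past 2-fold, at 19.6 in replicate 1 and 5.70 in replicate 2. Of markers of other cells, 1 of 6 lymphoid, 3 of 6 myeloid and 1 of 5 stromal and endothelial genes did so. Summed TPM was 325 and 251 for the 8 MEP markers and 55.8 and 101 for the 6 of the myeloid list. It was 7.01 and 14.1 for the lymphoid list and 5.80 and 2.66 for the stromal list. Cd3e, Cd4, Cd8a, Cdh5 and Col1a1 were at 0 in both libraries. The lymphoid and myeloid sums were higher in replicate 2, as were Terc, Rpph1 and Rmrp, but single markers went both ways. Gzma had 0 and 792 counts while Nkg7 was at a TPM of 7.01 and 5.02. Of the 6 myeloid genes, 4 were past 2-fold higher in replicate 2 on TMM-scaled counts and 2 were past it lower. The 4 were S100a8 at a TPM of 30.7 and 68.2, S100a9 at 15.9 and 30.7, Itgam at 0.28 and 0.54 and Csf1r at 0.08 and 0.2. The 2 were Mpo at 8.53 and 1.64 and Elane at 0.39 and 0.05. In replicate 2, S100a8 was above every MEP marker but Myb, which was at 108. The part of these differences in the RNA ratios was not tested. In bulk RNA, a share of cells and an amount of RNA per cell cannot be told apart.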

How the data were processed

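Total RNA-seq tables of 2 MEP libraries were used. Per the file headers, the authors deposited for each gene and transcript an expected count (estimated, not normalized), a TPM and an FPKM, both scaled by effective length, a posterior mean TPM and, taken here as scores, TPM interval bounds and a posterior SD of the count. FPKM was not reported. Build mm10 with GENCODE M4 is named in the deposited text files; no source used here gives the aligner or quantifying program. Symbols and coordinates came from GENCODE M21 on the same assembly, matched by ID without version (42462 of 43346 rows).

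TMM factors (edgeR 4.0.16, R 4.3.3) were computed on counts rounded to whole numbers. DESeq2 1.42.0 size factors from the same rounded counts were an alternative. Scaled values, ratios and their intervals used the expected counts without rounding. The count scaling and calling were checked on simulated counts with counting error only. That check does not cover the larger spread between these libraries. Ratio intervals are exact binomial (95%). Similar genes were searched with blastn 2.17.0. Other steps ran in Python 3.11.15 with pandas 2.3.3, numpy 2.4.6 and scipy 1.17.1; figures were drawn with matplotlib 3.10.9.

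The RNAs and gene lists were chosen with earlier results of these data known. Named genes are the 5 RNAs, the partner lists, other small RNAs with at least 10 counts in both libraries, overlapping and adjacent genes, and the 2 nearest genes in level; some are left out, and 1 listed gene is not reported here. Rny3, Rprl1, Rprl2, Rprl3, Clk4, Tmem254a, Alkbh6, Gm26809, Snora70, Gm26165 and Rpl10 were named after their values were seen where that rule did not take them. No p-values were computed.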

Additional observations from a re-analysis of the deposited data

How the results depend on the processing

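For the TPM and the replicate ratio of single RNAs, 13 values under alternative scales stayed within the spread or counting interval and 22 moved beyond it. This tally does not measure stability. TPM and CPM per kilobase are different units, and counting intervals are very narrow at high counts. With n = 2, leaving out a replicate returns the other library's value, which says nothing about stability. The only ratio that changed sign was that of Rn7sk, at -0.18 to -0.09 on the TPM scales. The log2 ratio of Gm22422 over Rn7sk was 0.79 in TPM and with the posterior mean TPM, and 0.58 to 0.99 with either replicate left out. It reversed to -3.15 per kilobase of annotated length and to -4.45 in counts with no length term; the change comes from the length alone, since the counts are the same. The share held by the 5 RNAs was 31.6% of TPM (28.7% to 34.5% with a replicate left out), 3.99% of counts and 16.9% per kilobase of annotated length. The number of genes past 2-fold, 3826, fell to 2016 of 12246 genes with at least 10 counts in each library and 813 with at least 100, where fewer genes are examined and none is at 0. In TPM 33.3% of the genes past 2-fold were higher in replicate 2, against 45.8% with TMM scaling. Terc was the only one of the 5 RNAs past 2-fold under every scaling run. No paired analysis was possible because there is 1 group. With 2 libraries, an SD is a difference between 2 values, and 113 counts limit Terc in replicate 1.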

Other observations

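For 4 of the 5 RNAs the deposited TPM lay outside the deposited interval, whose level is not stated, in both libraries. In replicate 1 the TPM of Rn7sk was 106315 and its interval ran from 104667 to 105239, around a posterior mean of 104955. The TPM of Gm22422 was 211287 with an interval from 207294 to 209890. The TPM of Terc lay inside its interval, at 6.11 between 4.97 and 7.21 in replicate 1 and at 19.8 between 18.0 and 21.4 in replicate 2. The deposited posterior SD of the count was 7.81 and 11.3 for Rn7sk, against at most 0.03 for the other 4 RNAs, and Rn7sk was the only one of the 5 whose expected counts were not whole.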
